A study of Drosophila melanogaster with 3 samples.

Results

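Binding of the CG4617-GFP protein was examined at genes that act with or below the sex switch of the fly. They are tra, tra2, dsx, fru, vir, fl(2)d, Mettl3, Mettl14, Ythdc1 and nito, 10 of 13968 protein-coding genes in the annotation. They were taken by name from their roles in sex-specific splicing and in N6-methyladenosine (m6A) marking of RNA, with earlier results of these data known. All data came from a single group, CG4617-eGFP anti-GFP ChIP, with 3 biological replicates taken as separate biosamples of 1 fly line, and no control group among the samples. Each was chromatin from whole Drosophila melanogaster embryos of both sexes pooled, 0 to 24 hours old, of a line that stably carries CG4617 with GFP at its C terminus, precipitated with an antibody against GFP. The binding read is therefore that of a tagged transgene product averaged over all embryonic cells and both sexes, and male and female patterns cannot be told apart.

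In flies the number of X chromosomes sets the state of Sxl, whose protein is made in females and directs the splicing of tra. Tra protein works with Tra2 to direct the female splicing of dsx and fru, transcription factor genes that shape the body and the courtship circuits. The m6A writer is a nuclear complex in which Mettl3 and Mettl14 form the methyltransferase core and fl(2)d, vir and nito encode partner proteins, while Ythdc1 encodes the nuclear reader of the mark. Loss of this machinery in flies impairs the female splicing of Sxl, which is why writers and sex genes are often studied together.

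The thresholded list of 5558 peaks was read as the set of bound sites, and a promoter peak is one whose summit lies within 500 bp of any transcription start site (TSS) of the gene. The pooled list of 20051 regions, which also holds background, begins with these 5558, so a rank past 5558 there lies below the threshold. Signal is the deposited value of a region, in units the sources do not give. It ran from 42.2 to 2038 in the pooled list with a thresholded minimum of 128.8. The replicate lists held 30000, 17251 and 14368 regions for replicates 1, 2 and 3. Ranks count from the strongest region of a list, and since list lengths differ they were read against the first 5558 of each.

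The DNA under 4 of the peaks is shown first, because the start regions of Ythdc1, Mettl14 and tra carry words known from broadly active fly promoters and the stretch at dsx, the lowest of the 8 strongest peaks per gene, carries neither. Each stretch lies around the strongest summit of the gene and is read along the gene's own strand from the RefSeq copy of Release 6 (dm6 coordinates). Capitals mark TATCGATA, the core of the DNA replication-related element (DRE), or GGTCACAC, the core of core-promoter motif 1, searched on both strands. Within 100 bp of the strongest summit, the DRE core was found at Ythdc1 and Mettl14 and the motif 1 core at tra only. The strongest peak, at fl(2)d, and that at tra2 therefore also carried neither, as did those at Mettl3 and nito.
Ythdc1 (chr3L:3374141-3374281, minus strand): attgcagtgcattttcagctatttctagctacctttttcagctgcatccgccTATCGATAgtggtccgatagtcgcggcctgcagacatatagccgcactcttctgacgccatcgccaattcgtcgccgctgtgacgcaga
Mettl14 (chr2L:8308203-8308363, plus strand): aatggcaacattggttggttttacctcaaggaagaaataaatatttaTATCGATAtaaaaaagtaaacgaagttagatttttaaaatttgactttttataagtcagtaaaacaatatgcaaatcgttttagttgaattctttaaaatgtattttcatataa
tra (chr3L:16590966-16591126, minus strand): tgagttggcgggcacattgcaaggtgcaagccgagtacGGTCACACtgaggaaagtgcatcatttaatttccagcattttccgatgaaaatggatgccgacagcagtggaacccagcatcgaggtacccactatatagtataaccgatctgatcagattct
dsx (chr3R:7963170-7963330, minus strand): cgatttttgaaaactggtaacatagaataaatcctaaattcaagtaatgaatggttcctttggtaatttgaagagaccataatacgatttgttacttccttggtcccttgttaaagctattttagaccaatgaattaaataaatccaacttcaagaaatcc

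The DRE core in the Ythdc1 stretch was centred 43.5 bp from the summit, and the capitals in the Mettl14 stretch were centred 29.5 bp from its stronger summit. A second DRE core spanned the Mettl14 TSS, centred 2.5 bp upstream of it and beyond the stretch shown. The motif 1 core of tra was centred 34.5 bp upstream of its TSS and 38.5 bp from the summit. In the 300 bp from 250 bp before to 50 bp after the most upstream TSS, the DRE core was present at 2 of the 10 genes, Mettl14 and Ythdc1, beside 9.36% of all protein-coding genes and 18.4% of those with a promoter peak. The motif 1 core was present there at tra and Mettl3, beside 7.69% of all genes and 17.3% of those with a promoter peak. Both words were thus about as frequent at the 10 genes as at genes with a promoter peak in general. The shorter word CGATA, which the DRE core contains and which is bound by the insulator protein BEAF-32, was found at 7 of the 10 genes, beside 47.3% of all and 61.5% of those with a promoter peak. No start region of the 10 held GAGAGA, against 12.3% of all and 8.07% of genes with a promoter peak. The counts were 1 for the E-box CAGCTG, 4 for TATAAA, 1 for TCAGTT and 2 for a run of 7 A. Over all genes these shares were 17.6%, 45.8%, 26.1% and 26.7%, and over genes with a promoter peak 22.9%, 46.2%, 17.5% and 30.3%. Matches on these words describe the sequence and do not show that a factor binds.

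Of the 10 genes, 8 had a promoter peak and 2, fru and vir, did not. Over all protein-coding genes the share was 37.1%, 5179 of 13968. The 8 genes held 10 promoter peaks, since fl(2)d and Mettl14 had 2 each, and 0 thresholded peaks lay elsewhere in the gene bodies. Counting any peak in the gene body or within 500 bp of a TSS therefore also gave 8 of 10, against 39.3% of all genes. In the pooled list, with its background regions, all 10 genes had a summit within 500 bp of a TSS, against 52.6% of all genes. By role, the count was 2 of 2 for the splicing regulators tra and tra2, 1 of 2 for the transcription factors dsx and fru, 2 of 2 for the catalytic subunits, 2 of 3 for the writer partners and 1 of 1 for the reader. The 10 genes were chosen with results of these data known, so these counts are a description without a test.

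The median signal of the strongest promoter peak was 304.6 over the 8 genes and 253.0 over all 5179 genes with a promoter peak, and 5 of the 8 lay above 253.0. The 8 genes were spread over most of the order of these genes by signal, though not over the range of signal, which reached 2038. Signals ran from 615 at fl(2)d, exceeded by 3.63% of genes with a promoter peak, to 140.8 at dsx, exceeded by 94.8% of them.

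**Figure D1:**
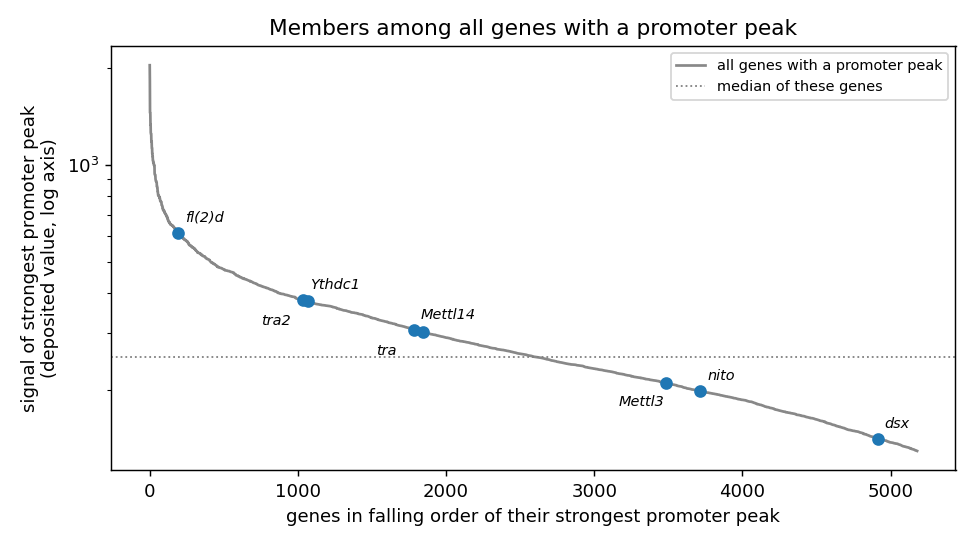
Strongest promoter peak of each gene. The x axis orders the 5179 protein-coding genes with a promoter peak by falling signal, the y axis gives that signal on a log axis, and points mark the 8 genes described here. From fl(2)d at 615 the points run down to dsx at 140.8, with 5 above the median of 253.0.

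fl(2)d, which encodes the fly counterpart of the mammalian writer partner WTAP, had the strongest peak. The gene (FBgn0000662) lies on 2R from 13819624 to 13824553 on the minus strand. Its main peak, from 13824498 to 13824898 with the summit at 13824697, had signal 615 and rank 142 of 5558. The region holding the summit ranked 153 in replicate 1, 191 in replicate 2 and 182 in replicate 3. These were the closest ranks after Mettl3 among the 8 genes, with a standard deviation (SD) of 0.17 on the log2 scale (n = 3), and the median SD over 3884 promoter peaks held by all replicates was 0.71. The summit lay 144 bp upstream of the fl(2)d TSS and outside the gene. A second summit in the same interval, 343 bp upstream at 13824896, had signal 130.7 and rank 5471, barely inside the list. That weaker summit lay 38 bp inside the neighbouring gene CG13339. Regions with a summit of their own near it ranked 7229 in replicate 1 and 4443 in replicate 3, while replicate 2 listed only its main summit there.

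Mettl3 (FBgn0039139), the catalytic subunit gene, lies on 3R from 24032157 to 24034257 on the plus strand. Its thresholded peak, from 24031565 to 24032004, had signal 209.8 and rank 2996. Replicate ranks were 2563, 2805 and 2946, the tightest of the 8 genes (SD 0.10 on the log2 scale, n = 3). The summit, at 24031785, lay 372 bp upstream of the Mettl3 TSS and only 42 bp from the TSS of KrT95D, inside the 5′ untranslated region of that neighbour. A second region of the pooled list sat between both genes, 170 bp upstream of Mettl3, with signal 116.5 and rank 6159, which is 601 places below the threshold. The promoter peak of Mettl3 thus rests on a summit nearer to another gene's start, and within 250 bp of the TSS Mettl3 had no thresholded summit.

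Mettl14 (FBgn0032016), whose product pairs with Mettl3, lies on 2L from 8308427 to 8309961 on the plus strand. It had thresholded summits on both sides of its TSS, 144 bp upstream with signal 306.9 and rank 1369, and 55 bp downstream with signal 219.5 and rank 2763. For the upstream summit the replicate ranks were 1515, 1165 and 1919. For the downstream one they were 1617, 2143 and 1919, so the same region of replicate 3, with its summit between them, held both. The upstream summit is the one in the printed stretch and lies 91 bp from the TSS of Ostgamma, which encodes an oligosaccharyltransferase subunit on the other strand.

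Ythdc1 (FBgn0027616) lies on 3L from 3370451 to 3374170 on the minus strand. Its peak was narrow, 149 bp, with the summit 12 bp upstream of the TSS, signal 380.0 and rank 752. Ranks in the replicates were 467, 1396 and 1173. The summits of the 3 replicate regions lay within 25 bp of each other, against a median span of 76 bp over promoter peaks held by all replicates. A weaker region of the pooled list 217 bp upstream, with signal 116.7 and rank 6146, had its summit in the coding sequence of the neighbour CG12010.

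nito (FBgn0027548), which encodes an RNA-binding writer partner related to mammalian RBM15, lies on 2R from 7962463 to 7969805 on the plus strand. Its peak summit lay 211 bp downstream of the TSS, in an intron, with signal 198.2 and rank 3272. The replicate ranks spread from 2185 in replicate 2 through 4177 in replicate 1 to 5432 in replicate 3, all inside the first 5558 but in replicate 3 by a narrow margin. Its divergent neighbour Septin5 starts 542 bp away, and no other TSS lay within 500 bp of the summit.

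vir (FBgn0003977), which encodes the fly counterpart of the writer partner VIRMA, lies on 2R from 23360192 to 23366355 on the minus strand and had no thresholded peak. Its best pooled region, with the summit 419 bp upstream of the TSS, had signal 121.8 and rank 5890, 332 places below the threshold. Replicates placed it at 5357, 7350 and 2618, so 2 of the 3 held it within their first 5558, although the summit of the replicate 1 region itself lay more than 500 bp from the vir TSS. The pooled summit lay 92 bp from the TSS of Ice1 on the other strand. A weaker region lay 85 bp downstream of the vir TSS in the 5′ untranslated region, with signal 77.9 and rank 9064, and was found at 7882 and 5552 in replicates 1 and 2 and not in replicate 3. vir and dsx stand on either side of the threshold, and their replicate ranks overlap.

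**Figure D2:**
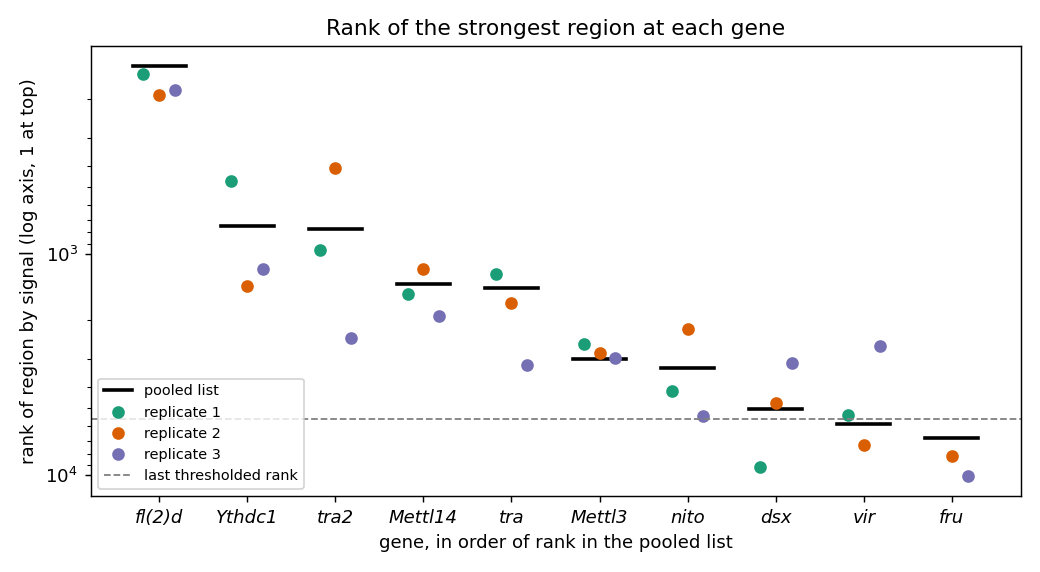
Rank of the strongest pooled region at each of the 10 genes. The y axis gives the rank by signal on a log axis with rank 1 at the top, bars mark the pooled list, points the region that holds the same summit in each replicate list, and the dashed line rank 5558. fl(2)d stands apart at ranks 142 to 191, dsx and vir lie on either side of the line, and the region at fru has no point for replicate 1.

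Among the sex determination genes, tra2 had the strongest peak. tra2 (FBgn0003742) encodes an RNA-binding protein needed with Tra, and lies on 2R from 14602004 to 14604337 on the minus strand with TSSs at 14603866 and 14604337. The peak summit was 52 bp downstream of the upstream TSS, from which 5 of the 7 annotated transcripts start, and 419 bp from the other one. Signal was 376.8 and rank 775. Replicate ranks of 958, 408 and 2412 gave the widest spread of the 8 genes (SD 1.28 on the log2 scale, n = 3).

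tra (FBgn0003741), the direct target of Sxl, is a gene of 992 bp on 3L from 16590059 to 16591050 on the minus strand. Its summit fell 4 bp downstream of the TSS, the shortest distance among the 8 genes, with signal 302.2 and rank 1422. Replicate ranks were 1234, 1675 and 3195. The 3 replicate summits were spread over 142 bp around the TSS. The nearest other TSS, that of l(3)73Ah, was 2493 bp away, although the bodies of both genes overlap.

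dsx (FBgn0000504), the gene at the end of the somatic branch, lies on 3R from 7924323 to 7967408 on the minus strand, 43086 bp long. Its only thresholded peak was weak, with signal 140.8 and rank 5049. The summit lay in an intron, 4158 bp downstream of the first TSS, from which 5 of 7 annotated transcripts start, and 464 bp upstream of the second TSS, which starts dsx-RC and dsx-RD. Replicates ranked it 9169, 4730 and 3131, so replicate 1 held it outside its first 5558. Its summit in replicate 1 lay 503 bp from that TSS, just outside the promoter window. The other 3 pooled regions in the gene had signals of 42.5, 42.6 and 56.9, at ranks 19794, 19758 and 12876 of 20051.

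fru (FBgn0004652), whose first promoter makes the transcripts that are spliced by sex, spans 131314 bp on 3R from 18414273 to 18545586 on the minus strand, with 7 TSSs. It had no thresholded peak. Among protein-coding genes at least as long as dsx, 49.6% had a peak somewhere and 28.3% a promoter peak. The pooled list held 7 regions in fru, all from 89.3 to 126.3 kb downstream of the first TSS. No pooled summit lay in the first 89 kb, and the one nearest to the first TSS was outside the gene at 28432 bp. The replicate lists did hold regions there, the first at 12.4 kb in replicate 1, 41.7 kb in replicate 2 and 57.1 kb in replicate 3. The strongest, in an intron with signal 105.1 and rank 6793, was held at 8199 and 10078 by replicates 2 and 3 and not by replicate 1. The next, 2048 bp downstream of the last TSS, had signal 93.5 and rank 7656 and was in all 3 replicates, at ranks 19357, 8922 and 4396. The single pooled region within 500 bp of a fru TSS lay 307 bp upstream of the last one, which starts fru-RM, with signal 69.6 and rank 10142. Replicate 2 also listed a region 184 bp downstream of the TSS of fru-RJ, at rank 16937 of 17251.

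**Figure D3:**
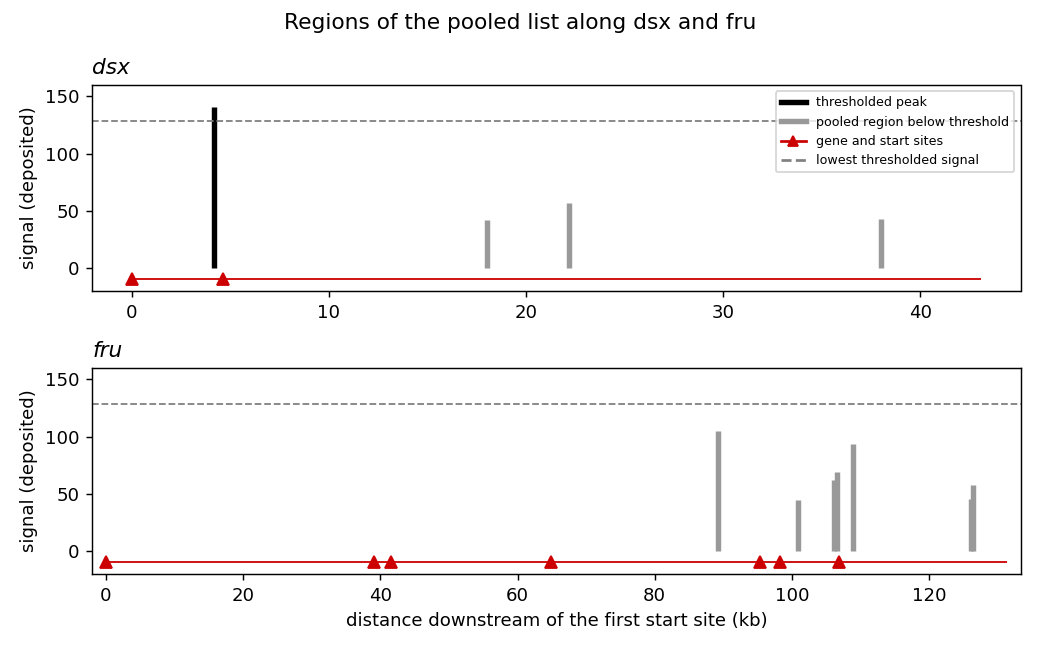
Regions of the pooled list along dsx and fru. The x axis is the distance downstream of the first TSS in kb, bars give the deposited signal, triangles mark TSSs, and the dashed line is the lowest thresholded signal of 128.8. Replicate lists are not drawn. A single bar at dsx, 4.16 kb from the first TSS, passes the line, while all 7 regions of fru lie below it, from 89.3 kb onward.

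Ordered by the geometric mean of the replicate ranks, the strongest peaks ran fl(2)d, Ythdc1, tra2, Mettl14, tra, Mettl3, nito and dsx. Only fl(2)d was set apart from the next gene, with all 3 of its ranks better than any of Ythdc1. From Ythdc1 onward the ranges of each pair of neighbours in this order overlapped, so the order within such pairs is not firm at 3 replicates. Some genes further apart did not overlap, as all ranks of Ythdc1 and Mettl14 were better than any of Mettl3, nito and dsx. Of the 10 peaks, 9 had their summit in a region among the first 5558 of all 3 replicates. The share was 61.4% of all thresholded peaks and 63.7% of promoter peaks. With only the strongest peak per gene the count was 7 of 8. The exception was dsx. For the minor fl(2)d summit this rested on the main region in replicates 1 and 2. Counted within each replicate, 7, 9 and 9 of the 10 genes had a promoter region among the first 5558 of replicates 1, 2 and 3, against 37.7%, 36.4% and 33.7% of all genes. Replicate 1 lacked dsx, fru and vir, and replicates 2 and 3 lacked fru. At vir the count came from different regions, ranked 5552 in replicate 2 and, near the Ice1 start, 2618 in replicate 3.

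Some of the peaks lay in start regions shared with another gene. The strongest peak had another gene's TSS within 500 bp at fl(2)d, Ythdc1, Mettl14 and Mettl3, and at none of tra, tra2, dsx and nito. This is 4 of 8, near the 57.7% of all genes with a promoter peak. In the 4 shared regions the neighbour was a protein-coding gene on the other strand, with starts 305 bp apart for fl(2)d and CG13339, 112 bp for Ythdc1 and CG12010, 235 bp for Mettl14 and Ostgamma and 330 bp for Mettl3 and KrT95D. The main summit lay between both starts in the first 3 pairs. A peak at such a region cannot be assigned to either gene from these files.

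A divergent protein-coding TSS within 1000 bp upstream was present at all 6 m6A genes and at 0 of the 4 sex determination genes, against 36.2% of all genes. Among the 6, 5 had a promoter peak, beside 66.4% of all genes with such a neighbour. Among the 4 others, 3 had one, beside 20.5% of all genes without such a neighbour. Whether the layout accounts for the peaks of the m6A genes was not tested.

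**Figure D4:**
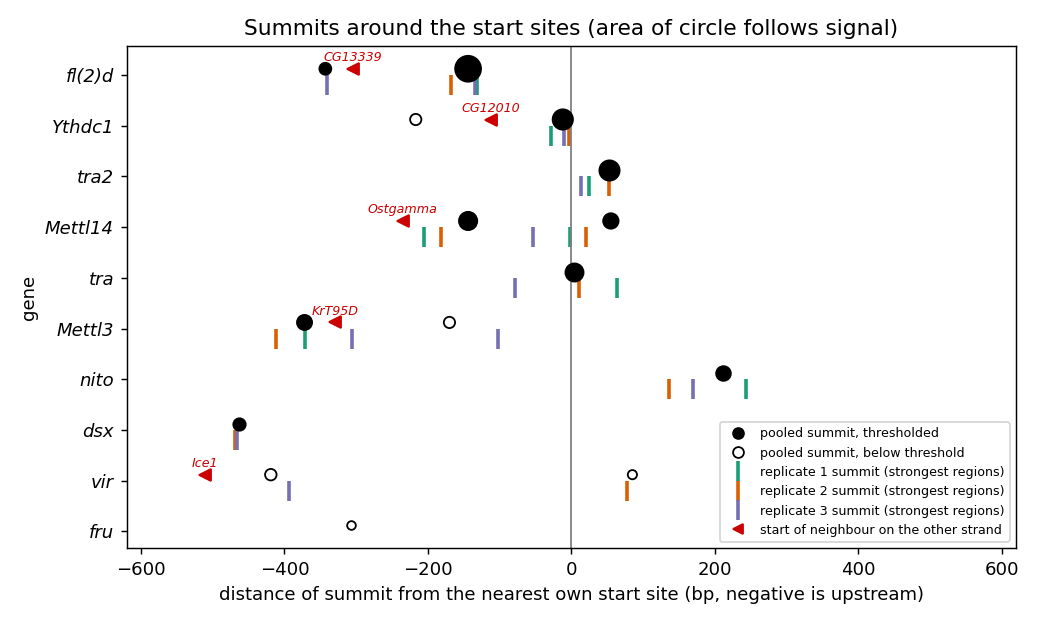
Summits around the start sites of the 10 genes. The x axis is the distance of a summit from the nearest TSS of the gene in bp, filled circles are thresholded summits, open circles pooled summits below the threshold, ticks summits among the first 5558 regions of each replicate and red triangles starts of neighbours on the other strand. The start of Septin5, 542 bp from that of nito, is not marked. The summit of tra lies at 4 bp and that of Ythdc1 at -12 bp, while the Mettl3 summit lies beyond the start of KrT95D.

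Genes around the 10 were counted in the same way over 4 lists. The other m6A genes had a promoter peak at 7 of 7, beside 37.1% of all protein-coding genes. All of them but Hakai and Fmr1 had a divergent TSS within 1000 bp upstream. The share over all genes with such a neighbour was 66.4%. Trmt112 (signal 771, shared with Ilk), a cofactor of several methyltransferases, was the strongest. Hakai (458), a writer partner, and CG7544 (428, shared with CG8089), which RefSeq gives the synonym Mettl16, followed. With the 6 described above, 12 of 13 m6A genes had a promoter peak, all but vir. Among SR proteins, their kinases and early spliceosome partners it was 10 of 11, with Srpk79D without one. Doa (403), a kinase of SR proteins, SRPK (396, shared with dup) and snRNP-U1-70K (390) were strongest. All in this list but Srpk79D and snRNP-U1-70K had a divergent TSS within 1000 bp upstream. No region of replicate 3 held the summits at snRNP-U1-70K, SC35 and B52. Of all thresholded peaks, 87.5% were held in all 3 replicates.

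Sxl and its regulators had a promoter peak at 7 of 13, beside 37.1% of all protein-coding genes. gro (588), a corepressor gene, was the strongest, followed by Sxl (260.7) and Stat92E (260.4). The X-linked signal genes sisA, sc, upd1 and run had none, and neither did emc and dpn. The Sxl summit lay 361 bp from its nearest TSS and ranked 2255, 1780 and 804 in the replicates. Cofactors and targets of dsx, fru and Sxl had one at 7 of 17, close to the background share. msl-2 (408, shared with ND-PDSW), the dosage compensation gene that Sxl represses, was the strongest. The gene for heterochromatin protein HP1a (271, shared with Ssb-c31a) and lola (235, shared with asRNA:CR45135) followed. The yolk protein genes Yp1, Yp2 and Yp3, classic targets of dsx, had none, nor did bab1, bab2, Fad2, dsf, chinmo and tut, and Abd-B had a peak in its body only.

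**Figure D5:**
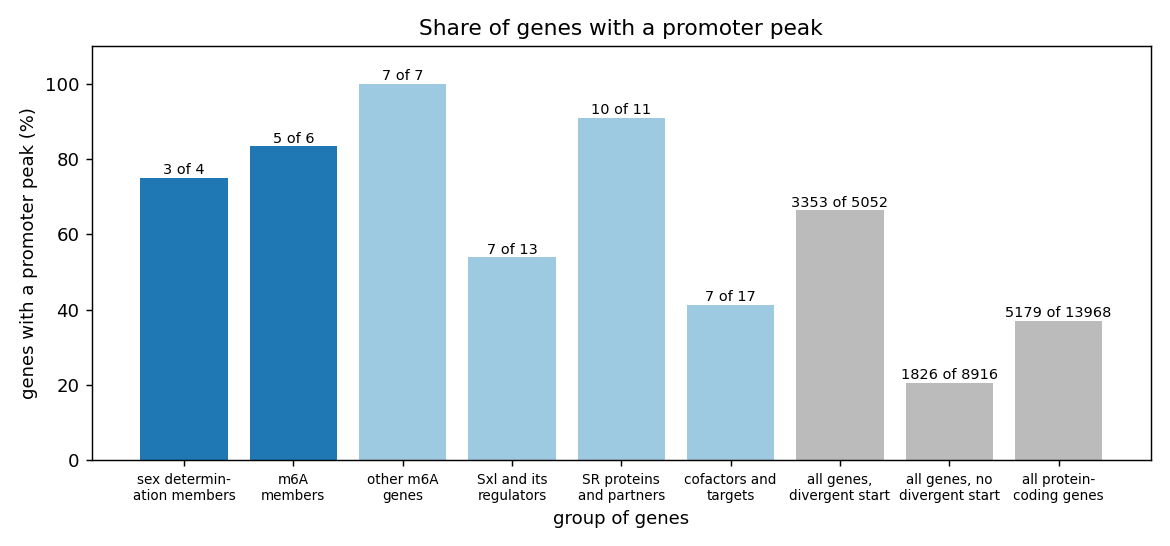
Genes with a promoter peak in percent, for the 4 sex determination and 6 m6A genes, 4 related lists and all protein-coding genes with a divergent start, without one and in total. Numbers over bars give genes with a peak of genes in the group. The 6 m6A genes, 5 with a peak, stand beside the 66.4% of all genes with a divergent start. The 4 sex determination genes, 3 with a peak and none with such a start, stand beside the 20.5% of all genes without one. The other m6A genes and the SR list, which mix both layouts, lie above 66.4%. The cofactor and target list lies close to the 37.1% of all genes.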

How the data were processed

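Peaks and regions came from 3 ChIP libraries of 1 group. Per the labels' listing text, the authors derived a replicate list from each library set against 1 control alignment, 1 pooled list from the 3 libraries together, and a thresholded list from these by the irreproducible discovery rate procedure (IDR). The value used is the deposited signal per region, whose scale is not stated. Which aligner and peak caller were run, and with which IDR cutoff, the labels and listings used here do not say. Reads per library are not in these files, so depth is unknown and no counting interval is given. Lists on build dm3 were not used.

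Summits of the dm6 lists were set against Ensembl release 115 on 7 chromosome arms, with Python 3.11.15, pandas 2.3.3 and numpy 2.4.6. Transposable elements were left out. A replicate rank is that of the strongest region holding the summit. No comparison between groups and no test was made; counts stand beside the share of all protein-coding genes. The gene assignment was tested on simulated summits within 500 bp of a TSS of genes on 2L with no other gene's start nearby. Since the same window was used to find them, this checks only that the rule runs as written. Shared start regions were not covered. All 48 genes of the 4 lists were found, Mettl16 as CG7544 and nos as nanos through RefSeq synonyms; in each list the 3 strongest and those without a peak are named. Members, lists and words searched were chosen with earlier results of these data known.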

Additional observations from a re-analysis of the deposited data

How the results depend on the processing

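The count of genes with a promoter peak was 8 of 10 and ran from 5 to 10 over 10 alternatives. Among the stronger 2779 peaks it fell to 5, both for promoter peaks (23.5% of all genes) and for any peak (24.8%), because dsx, Mettl3 and nito rank below 2779. It was 6 with a window of 250 bp (32.9% of all genes), without dsx and Mettl3. With only the most upstream TSS per gene it was 7 (35.3% of all genes), without dsx. With background regions of the pooled list it was 10, against 52.6% of all genes. Peaks were also kept only where the other replicates support them, leaving out each replicate in turn. Without replicates 1, 2 and 3 the count was 8, 7 and 7, against 28.5%, 28.2% and 32.1% of all genes. The gene lost without replicate 2 or 3 was dsx. Support of peaks by all replicates, 9 of 10, was 7 when a replicate region had to cover 0.5 of the peak (54.2% of all thresholded peaks). It was also 7 when the replicate summit had to lie within 100 bp (50.5%). With replicates 1, 2 and 3 left out in turn it was 10, 9 and 9, against 72.4%, 66.1% and 76.8%. The number of shared start regions was 4 within 250 bp (47.0% of all genes with a promoter peak). It was 5 within 1000 bp (69.7%), where nito was added. The genes tra, tra2, fl(2)d, Mettl14 and Ythdc1 had a promoter peak under all 10 alternatives. Within 100 bp of the summit in place of the start region, the motif 1 core was found at 1 of 8 genes, TATAAA at 1 and the run of A at 0. The shares over all promoter peaks were 10.7%, 24.0% and 19.4%. No paired analysis was possible because there is 1 group.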

Other observations

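The promoter peaks most like that of fl(2)d in their replicate ranks were at the summit shared by Cap-H2 and MED7, with signal 612.0 and ranks 161, 196 and 206, and at the summit shared by Arms and CG9752, with signal 618 and ranks 135, 193 and 157. The distance was 0.20 and 0.28 as the Euclidean distance of log2 ranks over the 3 replicates, and fl(2)d itself ranked 153, 191 and 182. As at fl(2)d, each of these summits lay within 500 bp of the starts of more than 1 gene.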
